A study of Mus musculus with 3 samples.

Results

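Cycling mesenchymal cells of the embryonic mouse palate were selected on their own RNA counts, as barcodes of single-cell libraries that carry RNA of dividing cells together with RNA of mesenchyme. A barcode stands for 1 captured droplet, and a unique molecular identifier (UMI) for 1 captured RNA molecule. Among barcodes with at least 500 detected genes, a member had a UMI of at least 3 of the 7 genes Top2a, Mki67, Hmmr, Anln, Diaph3, Cenpe and Depdc1a. It also had a UMI of at least 2 of the 6 genes Prrx1, Prrx2, Twist1, Twist2, Pdgfra and Col3a1, and no UMI of Epcam, Tyrobp or Pecam1, which mark epithelium, myeloid cells and endothelium. This gave 408 of 8107 barcodes. The members were set against 1714 barcodes of the same mesenchymal gate with no UMI of the 7 cycle genes, called non-cycling here. The remaining 589 barcodes of the gate had 1 or 2 of them. A cell whose few cycle transcripts were not captured falls among the non-cycling barcodes, so the name refers to detected RNA.

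The palatal shelves are paired outgrowths of the upper jaw that grow, turn and fuse into the secondary palate. Wild-type C57BL/6J embryos gave 3 libraries, 1 for each of the stages E13.5, E14.5 and E15.5, named for the day of embryonic life, and the shelves of 3 embryos were pooled in each. The embryos of a pool cannot be told apart, so no stage has a replicate, and every interval below covers counting error only. The E13.5 library gave 99 members of 3692 barcodes, E14.5 gave 129 of 1775, and E15.5 gave 180 of 2640. Where 3 values are given without a stage, they stand in this order. The libraries held 5293977 to 11472663 UMIs, and their smallest barcodes 500 or 501. Between any pair of libraries 1 to 3 barcode sequences recurred, none of them (0) in members of both.

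Shelf mesenchyme comes largely from cranial neural crest, and its division helps the shelves grow before they meet. A dividing cell copies its DNA in S phase and builds a spindle in mitosis, and the genes of these steps are switched on in turn. Replication genes are classic targets of E2F factors. Many mitotic genes are instead held down by the DREAM complex through a cell cycle homology region (CHR, TTTGAA) and are read from promoters that often hold CCAAT boxes bound by NF-Y.

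Promoters of 4 genes are shown because cycle genes of the rule and replication genes held these elements in different shares of their windows. The sequences are RefSeq's for GRCm38.p6, 250 bases before to 50 after the start site, 5′ to 3′ on the strand of the gene. Capitals mark the CHR, the CCAAT box and, in Mcm5, the E2F element, on either strand. Top2a, DNA topoisomerase II alpha, which untangles chromosomes, lies at chr11:99024140-99024439 on the minus strand. Hmmr, a spindle-associated protein, lies at chr11:40733388-40733687 on the minus strand. Depdc1a, a mitotic protein, lies at chr3:159495183-159495482 on the plus strand. Mcm5, a subunit of the replicative helicase, lies at chr8:75109259-75109558 on the plus strand.
Top2a: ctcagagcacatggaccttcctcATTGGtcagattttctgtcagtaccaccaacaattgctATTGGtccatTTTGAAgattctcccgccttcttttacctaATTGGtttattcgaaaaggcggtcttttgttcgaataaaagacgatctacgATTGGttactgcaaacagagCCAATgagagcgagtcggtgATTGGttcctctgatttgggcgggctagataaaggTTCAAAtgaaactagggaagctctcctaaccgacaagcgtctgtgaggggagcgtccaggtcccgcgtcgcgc
Hmmr: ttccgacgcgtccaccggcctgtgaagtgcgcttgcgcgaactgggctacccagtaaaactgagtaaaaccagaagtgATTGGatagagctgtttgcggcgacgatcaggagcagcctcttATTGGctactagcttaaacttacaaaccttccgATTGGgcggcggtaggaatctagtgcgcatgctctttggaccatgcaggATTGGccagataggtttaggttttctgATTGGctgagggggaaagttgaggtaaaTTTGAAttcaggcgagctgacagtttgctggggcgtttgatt
Depdc1a: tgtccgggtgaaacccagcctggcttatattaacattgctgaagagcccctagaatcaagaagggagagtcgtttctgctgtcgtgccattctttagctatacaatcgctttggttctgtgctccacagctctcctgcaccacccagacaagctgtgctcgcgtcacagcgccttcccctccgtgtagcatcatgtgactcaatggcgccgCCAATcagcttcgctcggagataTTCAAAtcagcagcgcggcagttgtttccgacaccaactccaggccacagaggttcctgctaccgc
Mcm5: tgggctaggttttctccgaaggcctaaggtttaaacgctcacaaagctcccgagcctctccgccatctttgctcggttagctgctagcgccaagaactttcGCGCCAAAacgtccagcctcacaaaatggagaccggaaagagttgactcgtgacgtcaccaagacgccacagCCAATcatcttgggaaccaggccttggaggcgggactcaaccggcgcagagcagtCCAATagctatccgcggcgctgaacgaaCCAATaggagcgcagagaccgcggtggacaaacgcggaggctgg
Top2a held 2 matches of the CHR, with first bases at -179 and -23 from the start site, and 6 CCAAT boxes. Hmmr held 1 CHR at 8 after the start and 5 CCAAT boxes. Depdc1a held a CCAAT box at -39 and a CHR at -16. Mcm5 held the E2F element at -149, 3 CCAAT boxes and no CHR (0).

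The CHR was in the windows of 5 of the 7 rule genes (Top2a, Mki67, Hmmr, Anln and Depdc1a), against 17.9% of all 32851 promoter windows. CCAAT was in 6 of 7, against 37.4% of all windows, and both were in 4 of 7, against 6.95%. The E2F element, searched as TTTGGCGC and as TTTCCCGC, was in 0 of 7 and in 1.56% of all windows. In the windows of 34 matched kinetochore and spindle genes, 64.1% held the CHR and 7.69% the E2F element. In the 40 windows of 35 matched replication genes, of 44 listed, 7.50% held the CHR, and 10 windows held the E2F element. The contrast was not general: the CHR was in 3 of 6 windows of the mesenchyme genes of the rule, and the E2F element in 3 of 10 windows of condensation genes. All motifs were searched on both strands, and matches of different motifs were allowed to overlap. A match is a description of letters in the window and shows no bound factor.

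The label was checked against markers, and the E13.5 members stood apart from the later ones. At E13.5, 48 of 99 members carried a UMI of at least 4 of 20 neuron and neural progenitor markers, against 8 of 129 and 9 of 180 in the later libraries. In 25 of the E13.5 members at least 10 of these markers were detected, and no member (0) of the later libraries reached 10. The 10 neuron markers summed to 1557 CPM (UMIs of a gene or list scaled to a common total over the summed barcodes) at E13.5, where all 10 exceeded 20 CPM, and to 208 and 180 CPM later. The 26 mesenchyme markers, which include the 6 of the rule, summed to 5141, 12768 and 14339 CPM. The non-cycling barcodes had the same order, with 6407, 15032 and 16007 CPM of the mesenchyme markers and neural markers in 51 of 249, 12 of 581 and 12 of 884. Of the 99 E13.5 members 17 had none of the 20 markers (0), and the mesenchymal name is therefore used there for the rule alone.

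**Figure D1:**
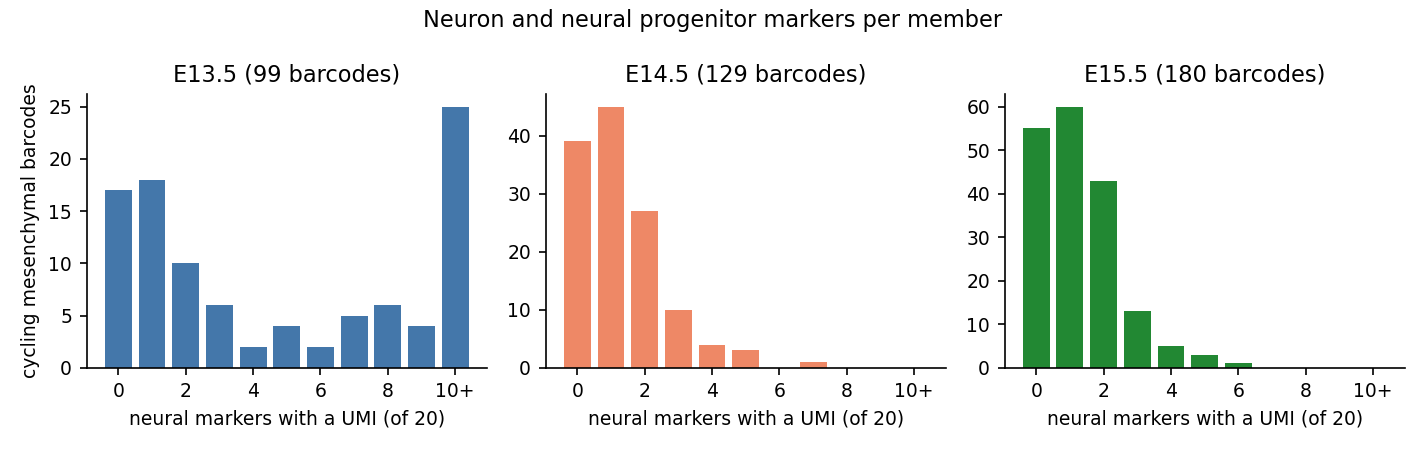
Number of members (bars, vertical axis) by how many of 20 neuron and neural progenitor markers had a UMI in the barcode (horizontal axis), for each library; the vertical scales differ. At E13.5 the members spread over the whole axis, from 17 with none to 25 in the last bar, which pools 10 or more markers, while 121 of 129 and 171 of 180 members of the later libraries had under 4.

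Among the E13.5 members, the 51 with under 4 neural markers had a median of 3775 UMIs and the 48 others a median of 9683.5. The 20 mesenchyme markers outside the rule summed to 4212 CPM in the first and 4076 CPM in the second. Col1a1, a fibrillar collagen chain and 1 of these, stood at 241 and 240 CPM, so neither value set these groups of members apart. The same split of the E13.5 non-cycling barcodes gave 5285 against 3886 CPM for the 20 markers and 635 against 272 CPM for Col1a1. Tcf4 was the most abundant mesenchyme marker of E13.5 members, at 922 CPM, and whether neural cells hold RNA of the listed markers was not tested. In members the matrix list summed to 3199 and 1616 CPM. The 6 mesenchyme genes of the rule, which chose the members, summed to 1851 and 675 CPM. Tubb3, a neuronal tubulin, was at 9.47 against 308 CPM, and Stmn2, a neuronal growth protein, at 37.9 against 474 CPM. In the later libraries, members with under 4 neural markers had the 20 markers outside the rule at 10029 and 11377 CPM, above both groups of E13.5 members. Barcodes of 4 or more neural markers are called neural barcodes here, a limit chosen after seeing the data. Values below include them unless a value without them is named.

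RNA of other cell types was also found in members. Schwann lineage markers summed to 171, 146 and 38.8 CPM, against 97.6, 37.6 and 47.5 CPM in non-cycling barcodes, and 7 of 129 members at E14.5 had 3 or more of them. Skeletal muscle markers summed to 22.5, 161 and 66.2 CPM against 14.7, 24.8 and 14.4 CPM, and mural markers to 61.8, 146 and 162 CPM against 50.8, 95.4 and 115 CPM. The 8 erythroid markers summed to 32940, 7410 and 5828 CPM in members and to 16867, 6659 and 11666 CPM in non-cycling barcodes, so that members had more at E13.5 and less at E15.5. A single E13.5 member held 4146 of the 7963 UMIs of Hbb-y, an embryonic globin. Epithelial markers summed to 14.0, 18.7 and 217 CPM against 25.4, 39.1 and 30.1 CPM in non-cycling barcodes, and 7 of 180 members at E15.5 had 3 or more of them. Myeloid markers summed to 2.81, 46.8 and 24.0 CPM against 6.69, 15.8 and 13.6 CPM, and endothelial markers to 28.1, 71.2 and 59.3 CPM against 46.8, 62.3 and 65.7 CPM. Their part in the results below was not tested, other than by leaving such barcodes out. Members were also deeper than the non-cycling barcodes, with median UMIs of 5205, 3257 and 3778.5 against 2411, 1883 and 2092, and the part of this in the results was not tested beyond the thinned values given below.

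The 7 cycle genes chose the members, so their levels are a description. Top2a was the most abundant, at 1026, 1731 and 1675 CPM, and was found in 95 of 99, 123 of 129 and 172 of 180 members. Mki67, the source of the Ki-67 antigen of dividing nuclei, stood at 327, 496 and 539 CPM. Diaph3, a formin that assembles actin, stood at 268, 461 and 768 CPM. Cenpe, a kinetochore motor, stood at 205, 380 and 381 CPM. Hmmr was at 117, 208 and 159 CPM, Depdc1a at 81.5, 180 and 145 CPM, and Anln, an actin binder of the cleavage furrow, at 70.2, 139 and 172 CPM. All 7 were lowest at E13.5. Without neural barcodes the log2 ratio between E15.5 and E13.5 came to 0.02 for Top2a, from 0.71, and to 0.25 for Mki67, from 0.72. Diaph3 kept a ratio of 0.89, from 1.51. CPM here counts molecules and is not scaled by gene length.

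The 6 mesenchyme genes of the rule, given as a description too, differed little in some cases and more in others. Prrx1, a homeobox factor of limb and face mesenchyme, stood at 379, 935 and 1071 CPM in members and at 550, 1018 and 1064 CPM in non-cycling barcodes. Pdgfra, a growth factor receptor, stood at 98.3, 240 and 226 CPM against 219, 283 and 252 CPM, the widest gap being at E13.5. Twist2, a relative of Twist1, stood at 25.3, 28.1 and 59.3 CPM against 30.8, 51.1 and 40.3 CPM, higher in members at E15.5 alone. Col3a1, a collagen chain, stood at 299, 1169 and 1360 CPM against 559, 1430 and 1473 CPM. Prrx2, a relative of Prrx1, stood at 101, 97.4 and 120 CPM against 120, 131 and 127 CPM. Twist1, a neural crest transcription factor, stood at 121, 208 and 194 CPM against 166, 234 and 215 CPM.

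The number of cycle genes detected ordered the gate, and the position of the limit at 3 genes can be read from it. Barcodes with 2 cycle genes, just outside, numbered 44, 48 and 77 in the 3 libraries, and those with 3, just inside, numbered 32, 45 and 43. The 23 mitotic cyclins and kinases, which start and time mitosis, summed to 476, 636 and 472 CPM with 2 cycle genes and to 624, 1084 and 843 CPM with 3. With no cycle gene (0) they summed to 92.3, 113 and 98.8 CPM, and with 6 or 7 to 1388, 2143 and 2219 CPM. Replication genes behaved differently along the same steps. They stood at 1438, 1564 and 1301 CPM with none, at 3085, 4275 and 3465 CPM with 2, and at 2719, 3380 and 3652 CPM with 6 or 7. Barcodes just outside the rule thus already had replication RNA near the level of the members. The steps also differ in depth, with medians of 3600.5, 2113 and 3109 UMIs at 2 genes and 7612, 5205 and 6562 at 6 or 7.

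**Figure D2:**
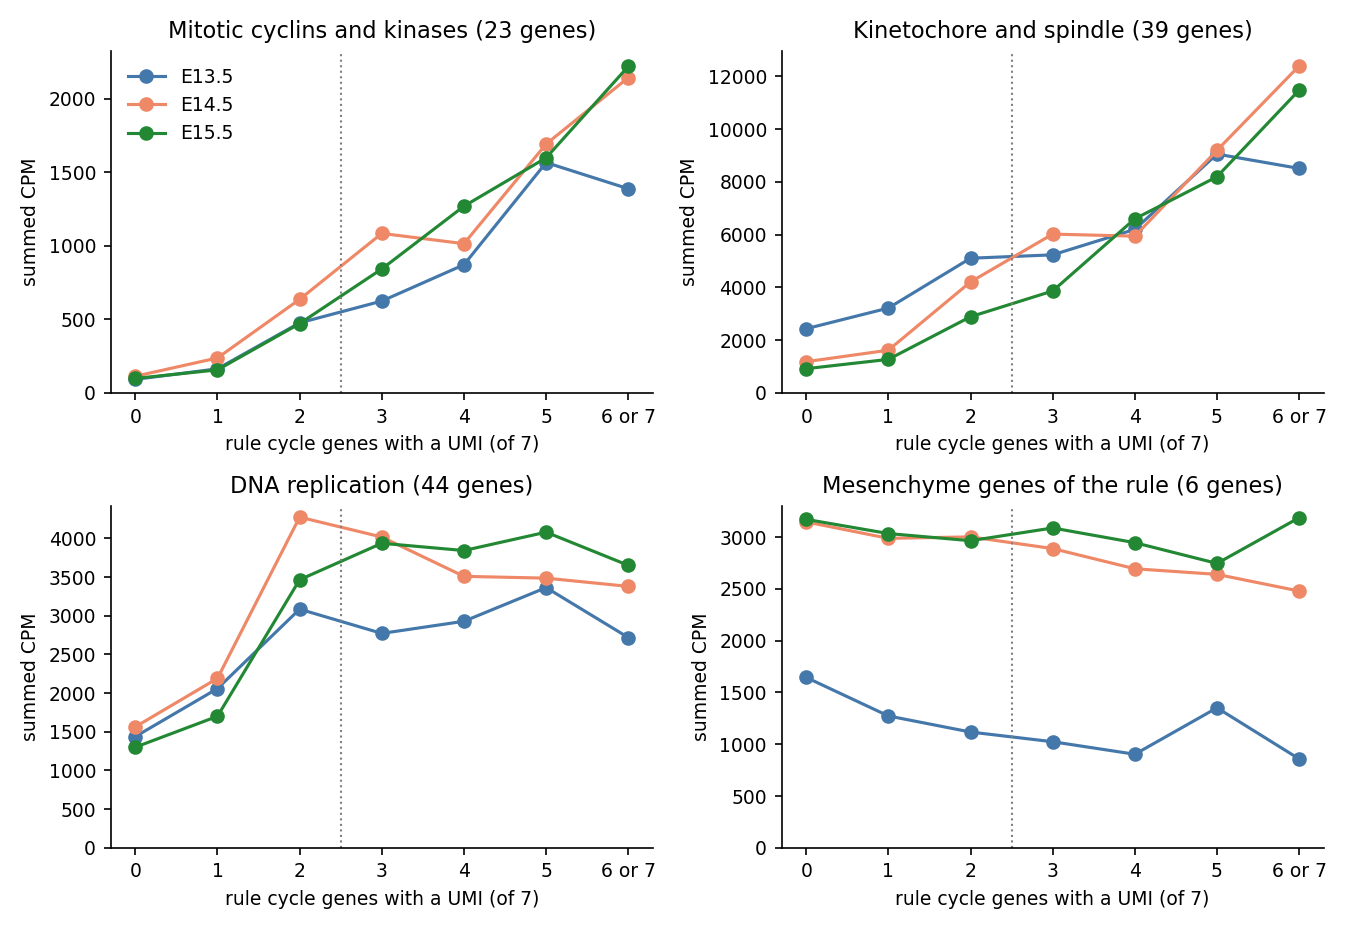
Summed CPM of 4 gene lists (vertical axes) in barcodes of the mesenchymal gate by the number of rule cycle genes with a UMI (horizontal axis), a line per library; the dotted line marks the limit between barcodes outside and inside the rule. The cyclins and kinases go from 92.3 to 113 CPM with no cycle gene to 1388 to 2219 CPM with 6 or 7, with falls between single steps at E13.5 and E14.5, while replication genes are near their highest at 2 genes.

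The same order was looked for in single members. Every barcode was thinned to 1500 UMIs, which left out 6, 19 and 18 shallower members. Members then held a median of 3, 5.5 and 5 UMIs of 44 replication genes and of 9, 12.5 and 12.5 UMIs of 68 mitosis genes, from which Stmn1 and 3 tubulins were left out after seeing that neural barcodes are rich in them. Non-cycling barcodes held medians of 2, 2 and 1 and of 1, 1 and 1. At least 3 mitosis UMIs were in 82.8%, 92.7% and 92.6% of members, and at least 3 replication UMIs in 64.5%, 78.2% and 73.5%. In non-cycling barcodes the shares were 22.9%, 23.2% and 16.8% for mitosis and 35.8%, 37.8% and 28.4% for replication. Both were in 50 of 93, 81 of 110 and 111 of 162 members, and in 15 of 179, 40 of 362 and 30 of 595 non-cycling barcodes. At least 2 of 6 late mitotic genes were detected in 14, 20 and 27 of these members. Members thus held replication and mitotic RNA, and a larger share of them reached 3 mitosis UMIs than 3 replication UMIs. The same limit was set on lists of 68 and 44 genes, so these shares are not on one scale. The rule that chose the members was also built on mitotic genes.

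**Figure D3:**
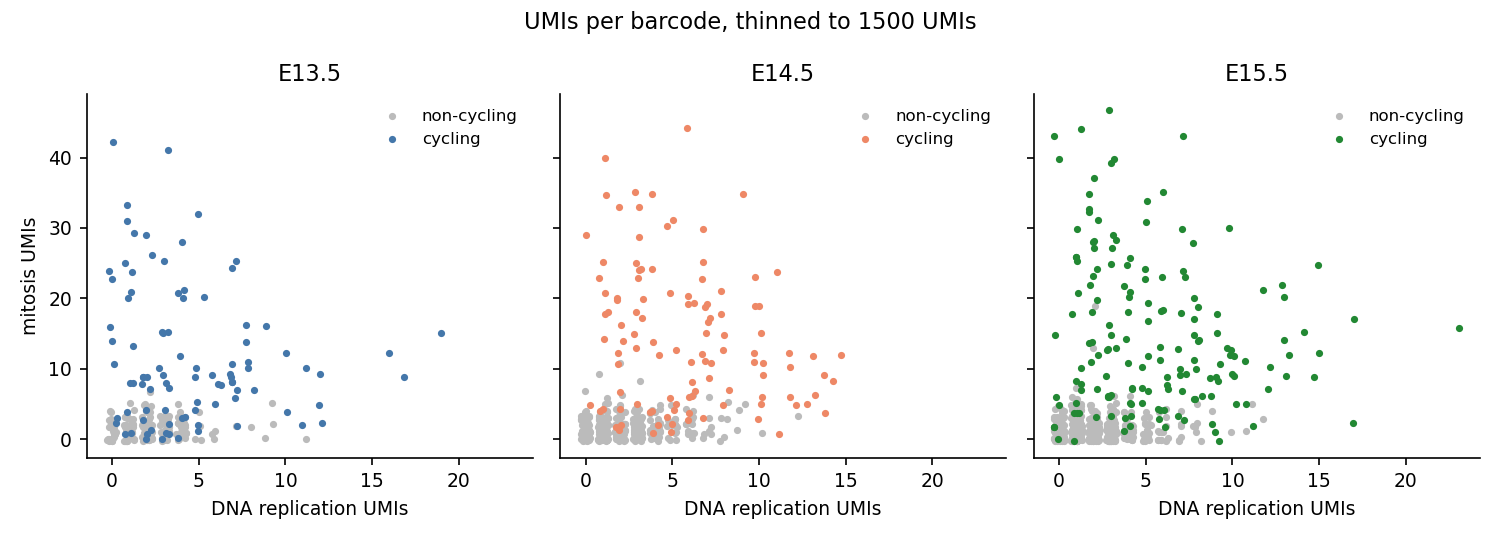
Replication UMIs (horizontal axis) against mitosis UMIs (vertical axis) in each barcode after thinning to 1500 UMIs, members in colour and non-cycling barcodes in grey, a panel per library; points are shifted slightly at random so that equal values show. Members reach 42, 44 and 47 mitosis UMIs, and non-cycling barcodes 7, 11 and 19.

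Cycling and non-cycling barcodes were then compared across all genes, with UMIs summed per library and class and the library as a term in the fit. Because the same cells were chosen for their cycle RNA, genes of the cycle lists are given as a description. Of 7557 genes tested, 382 were higher in members (5.05%) and 141 lower (1.87%), or 523 in all (6.92%), by edgeR's quasi-likelihood test at an adjusted p under 0.05. The count of lower genes rests on the library term and on the tool. Without that term 171 genes were higher and 3 lower, and DESeq2 called 211 and 21. Without the E15.5 library 223 were higher and 48 lower, and without barcodes of 4 or more neural markers 423 and 197. In all 3 libraries 1534 genes were higher in members and 1597 lower, whether called or not.

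Of 145 listed cycle genes 120 had enough UMIs to be tested, and 106 of them were among the 382. Members were chosen for cycle RNA, so these calls follow from the choice and are no result. They also raise the 5.05% and 6.92% given for all genes tested. Some of these genes, such as Plk1 and Aurkb below, had nearly all their UMIs in members and reached the level filter through them. The 37 kinetochore and spindle genes tested had a median log2 ratio of 4.44, the 18 mitotic cyclins and kinases 4.47, the 11 histone genes 2.76, the 11 condensation genes 2.61 and the 34 replication genes 1.27, against -0.04 over all genes tested. Kif23, a kinesin of the cleavage midzone, had 68, 59 and 116 UMIs in members and 1, 3 and 2 in the larger non-cycling sums, a fitted log2 ratio of 6.29. Cenpf, a kinetochore protein, stood at 402, 541 and 608 CPM against 24.1, 21.8 and 8.48 CPM. Plk1, the polo kinase that drives entry into mitosis, had 24, 27 and 37 UMIs against 0, 1 and 1. Aurkb, the kinase of the chromosomal passenger complex, had 22, 23 and 41 against 0, 0 and 1. Cdk1, the central mitotic kinase, stood at 92.7, 184 and 181 CPM against 12.0, 13.52 and 11.02 CPM. Esco2, which ties sister chromatids together, had 52, 46 and 136 UMIs against 1, 1 and 0.

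Replication genes had smaller ratios, all 34 of them above 0 in the fit. Tk1, a thymidine kinase, had a log2 ratio of 3.87, Brip1, a helicase, 3.62, and Rrm2, the regulated subunit of ribonucleotide reductase, 3.14. Rrm2 stood at 87.1, 103 and 86.7 CPM in members and 14.7, 12.0 and 6.78 CPM in non-cycling barcodes. The lowest ratios of the list included those of Mcm4, a subunit of the replicative helicase, and Rfc1, of the clamp loader. Mcm4 stood at 74.5, 74.9 and 104 CPM in members against 73.6, 57.1 and 48.8 CPM, and Rfc1 at 260, 416 and 347 CPM against 246, 301 and 286 CPM. Pcna, the sliding clamp of DNA polymerase, stood between these groups at 111, 112 and 102 CPM against 37.5, 50.3 and 42.8 CPM.

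Genes of mitotic exit were mixed. Ube2c, the ubiquitin carrier of the anaphase-promoting complex, had a log2 ratio of 4.20 and Cks2, a partner of mitotic kinases, 3.19. Pttg1, securin, was instead level or scarcer in members, at 35.1, 58.1 and 21.7 CPM against 38.8, 60.8 and 49.6 CPM, a log2 ratio of -0.50. Hist1h2bc, a histone gene of the same list as Hist1h1b, stood at 22.5, 26.2 and 18.3 CPM against 18.7, 18.8 and 22.9 CPM, whereas Hist1h1b stood at 309, 270 and 364 CPM against 42.8, 24.0 and 26.7 CPM. Histone genes are near-identical in sequence, so reads may have been shared between them.

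Genes in no list that were highest in members included others of division. Cep55, an abscission protein, had 46, 35 and 70 UMIs against 0, 1 and 1. Neil3, a DNA repair glycosylase, had 69, 71 and 130 against 1, 5 and 6. Efcab11, of less known role, followed them with 59, 55 and 109 against 2, 3 and 9. A pair of genes near the top came from single barcodes: all 155 E15.5 UMIs of Kif28 were in 1 member, and 91 of 100 E15.5 UMIs of Cgas were in 1 of 10 members with a UMI.

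Regulators of G1 phase, which control whether a cell commits to divide, were listed apart from the cycle lists. They too belong to the cell cycle, and members were chosen by cycle RNA. Their adjusted p-values by edgeR, and those of the cell cycle exit genes that follow, are not independent of that choice. They are given as a description. Of 10 tested, 3 were higher in members, 1 was lower and 6 did not pass, where 5.05% of all genes tested were called higher and 1.87% lower. By DESeq2, and with no library term, 1 of the 10 was called. Without neural barcodes 2 were higher and 1 lower of 11, with log2 ratios of 0.93 for E2f3, 1.41 for Rbl1 and -0.65 for Ccnd2. E2f3, an activator of S phase genes, stood at 155, 135 and 149 CPM in members and at 66.9, 78.1 and 76.3 CPM in non-cycling barcodes. It was higher in 3 of 3 libraries, with a log2 ratio of 0.95 ± 0.14 (SE, adjusted p = 0.00207), and a ratio of 0.31 (adjusted p = 0.796) after thinning to 1500 UMIs. Rbl1, the pocket protein p107, was higher by a log2 ratio of 1.20 ± 0.27 (adjusted p = 0.0223), and lost the call without E14.5 (1.01, adjusted p = 0.065). The D cyclins, partners of Cdk4 and Cdk6, went apart. Ccnd2 stood at 385, 412 and 398 CPM in members against 447, 672 and 585 CPM, lower in 3 of 3 libraries, with a log2 ratio of -0.52 ± 0.12 (adjusted p = 0.0324), and lost the call without E14.5 (adjusted p = 0.134) and without E15.5 (adjusted p = 0.156). Ccnd1 stood at 91.3, 88.0 and 54.7 CPM against 68.2, 51.8 and 27.6 CPM, a log2 ratio of 0.70 ± 0.18 (adjusted p = 0.0451). The call for Ccnd1 held in 5 of 18 settings. It was lost without E14.5 (adjusted p = 0.0866), without E15.5 (adjusted p = 0.245) and without neural barcodes (adjusted p = 0.111), and the ratio was -0.13 after thinning. Ccnd3 had a log2 ratio of -0.36 ± 0.18 (adjusted p = 0.282).

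Genes of cell cycle exit, a description for the same reason, gave 1 call of 15, or about the 6.92% called over all genes tested. Cdkn2d, the Cdk4 inhibitor p19, was higher in members, at 35.1, 18.7 and 41.1 CPM against 10.7, 9.77 and 6.36 CPM (log2 ratio 1.89 ± 0.36, adjusted p = 0.00982). Its ratio was 2.15 without neural barcodes, and its call was lost by DESeq2 (adjusted p = 0.105) and with no library term (adjusted p = 0.0719). Cdkn1c, the inhibitor p57, stood at 302, 624 and 526 CPM in members and at 368, 586 and 563 CPM in non-cycling barcodes. Its log2 ratio of -0.12 ± 0.10 did not pass (adjusted p = 0.571), and members lay above the non-cycling value at E14.5 alone. Btg1, an antiproliferative gene, had a log2 ratio of -0.44 ± 0.12 (adjusted p = 0.0580), and passed without neural barcodes (-0.49, adjusted p = 0.0256).

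Some matrix genes were lower in members. Of 20 extracellular matrix genes 5 were lower at an adjusted p under 0.05, 0 were higher, and 11 were lower in all 3 libraries, with a median log2 ratio of -0.26 against -0.04 over all genes tested. Over all genes tested 1.87% were called lower. Of the 20 matrix genes 3 were called by DESeq2, 0 with no library term and 4 without neural barcodes. Ogn, the small proteoglycan osteoglycin, stood at 26.7, 170 and 205 CPM in members and at 86.9, 366 and 507 CPM in non-cycling barcodes. It was lower in each library, with a log2 ratio of -1.33 ± 0.13 (adjusted p = 7.28e-05), and of -1.42 without neural barcodes. Aspn, asporin, a relative of Ogn, stood at 35.1, 305 and 362 CPM against 92.3, 502 and 728 CPM, a log2 ratio of -0.99 ± 0.13 (adjusted p = 0.000676), and of -1.05 without neural barcodes. The other 3 were Mfap4, a microfibril protein, at -0.71 ± 0.17, and, named after their values were seen, Postn, periostin, at -0.59 ± 0.12, and Fbn2, a fibrillin, at -0.43 ± 0.10. Without neural barcodes the ratio of Mfap4 was -0.76. The call for Mfap4 was lost without E13.5 (adjusted p = 0.0519) and without E15.5 (adjusted p = 0.333). Fn1, fibronectin, stood at 271, 386 and 335 CPM against 324, 336 and 359 CPM, and its log2 ratio was -0.07 ± 0.11.

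The collagen I chains, the main fibre of this mesenchyme, followed the matrix genes. Col1a1 stood at 240, 2693 and 3054 CPM in members and at 499, 3689 and 3743 CPM in non-cycling barcodes, lower in 3 of 3 libraries (log2 ratio -0.59 ± 0.13, adjusted p = 0.0226). Without neural barcodes the ratio of Col1a1 was -0.63 (adjusted p = 0.0204). Col1a2 had a log2 ratio of -0.47 ± 0.12 (adjusted p = 0.0367; -0.45 without neural barcodes), a call that was lost by leaving out any 1 of the 3 libraries (adjusted p 0.0541 to 0.0943, with log2 ratios of -0.55 to -0.30). The other 16 of 18 mesenchyme genes tested outside the rule did not pass, where 1.87% of all genes were called lower. DESeq2 called 1 of the 18, and the fit with no library term 0.

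Secreted Wnt antagonists gave 2 calls of 9, both lower in members, where 1.87% of all genes tested were called lower. Only Dkk2 was called by DESeq2 or without neural barcodes, and 0 of 9 with no library term. Dkk2, which blocks a Wnt co-receptor, stood at 57.6, 225 and 330 CPM against 123, 321 and 487 CPM (log2 ratio -0.69 ± 0.12, adjusted p = 0.00711), and had a ratio of -0.62 (adjusted p = 0.0105) without neural barcodes. Sfrp2, a secreted Frizzled-like protein, stood at 204, 603 and 550 CPM against 302, 753 and 781 CPM (log2 ratio -0.49 ± 0.10, adjusted p = 0.0178). Of 2 Wnt ligands and 5 Wnt targets tested 0 passed by edgeR or DESeq2, and 0 had an unadjusted p under 0.05. Axin2, a general target of the pathway, had a log2 ratio of -0.37 ± 0.20. Of 9 Hedgehog pathway genes, too, 0 passed by either tool or at an unadjusted p under 0.05, and Gli3 had a log2 ratio of 0.07 ± 0.10.

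A growth factor, a chemokine and a translation inhibitor, named after their values were seen, were also lower in members (adjusted p by edgeR 0.0104, 0.0016 and 0.00133). Igf1, insulin-like growth factor 1, stood at 32.3, 279 and 189 CPM in members against 123, 394 and 353 CPM, a log2 ratio of -0.95 ± 0.18. Cxcl12, a chemokine, stood at 114, 118 and 133 CPM against 211, 230 and 207 CPM, a log2 ratio of -0.84 ± 0.12. Pdcd4, an inhibitor of translation, was lower by nearly the same ratio in each library, at -0.65, -0.78 and -0.75, with -0.75 ± 0.11 in the fit. The lowest called ratios outside the lists were those of Cfap299 (-2.38), Arf4os (-2.09), Mtmr4 (-1.84) and Gabrg3 (-1.52). Mtmr4, a lipid phosphatase, had 8, 8 and 13 UMIs in members against 39, 78 and 93 (adjusted p = 0.00148), and Cfap299 had 2, 1 and 13 against 4, 15 and 198 (adjusted p = 0.00212). Without E15.5 Arf4os had a ratio of -1.08 (adjusted p = 0.189). By DESeq2 Cfap299 and Gabrg3 were not called (adjusted p 0.132 and 0.32), nor with no library term (0.722 and 0.606), and Mtmr4 lost its call after thinning (0.322) and with 2 cycle genes asked for (0.107).

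**Figure D4:**
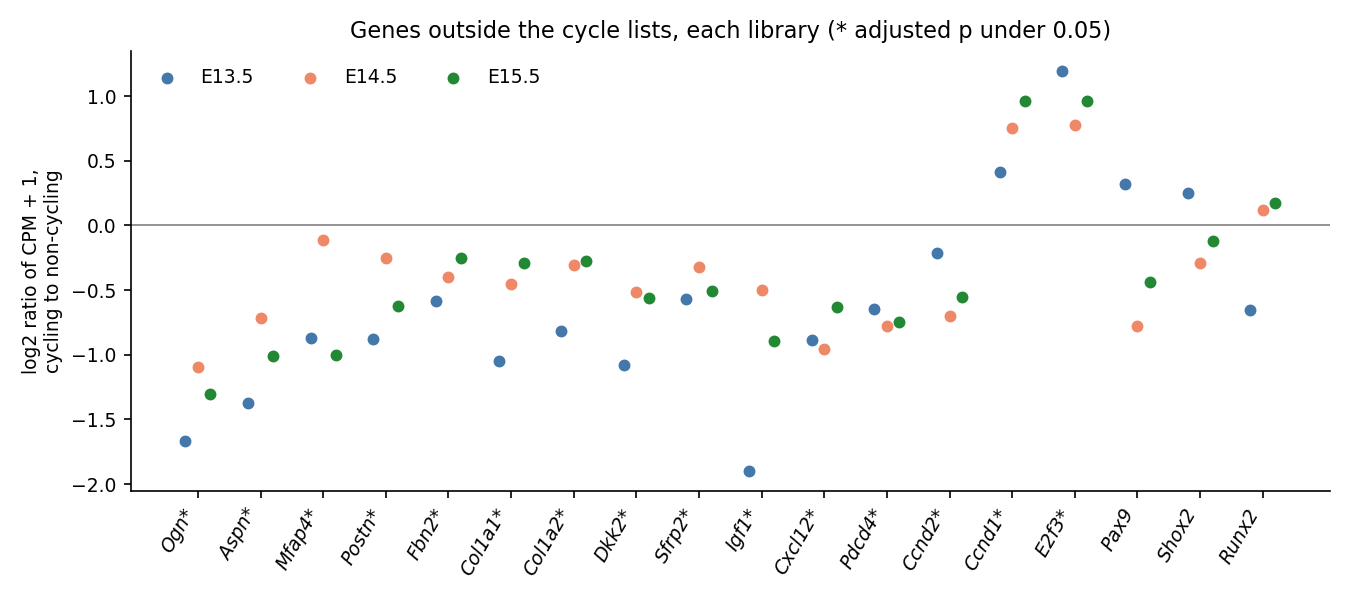
Log2 ratio of cycling to non-cycling CPM, with 1 CPM added (vertical axis), of 18 genes outside the cycle lists in each library (points); a star marks an adjusted p under 0.05 in edgeR's fit over the 3 libraries. The first 13 genes, from Ogn to Ccnd2, lie below 0 in each library, E2f3 and Ccnd1 above it, and Pax9, Shox2 and Runx2 on both sides. Ccnd2, Ccnd1 and E2f3 are themselves cycle regulators, so their stars are a description.

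Of 20 genes that pattern the palate 0 passed by edgeR or DESeq2, where 6.92% of all genes passed by edgeR, and 3 were lower at an unadjusted p under 0.05, a limit that 1599 of all 7557 genes met in either direction. Neither count sets the list apart from the other genes. Its median log2 ratio was -0.17, and 1 of 20 genes had a ratio above 0, against 3348 of 7557 over all genes tested. Without neural barcodes 5 of 21 were above 0, against 3320 of 7459. After thinning 9 of 21 were, against 3452 of 7291. This difference in direction was not tested. Pax9, a transcription factor needed for palate growth, stood at 52.0, 73.1 and 120 CPM in members and at 41.5, 126 and 162 CPM in non-cycling barcodes (log2 ratio -0.44 ± 0.19, adjusted p = 0.222). Its members lay above the non-cycling value at E13.5 and below it at both later stages. Msx1, a homeobox factor of the anterior palate, stood at 119, 91.8 and 171 CPM against 94.96, 175 and 226 CPM (log2 ratio -0.39 ± 0.20, adjusted p = 0.295). Without neural barcodes their ratios were -0.28 and -0.35 (adjusted p = 0.595 and 0.42). Without E13.5 both passed, Pax9 with a log2 ratio of -0.59 (adjusted p = 0.0388) and Msx1 with -0.62 (adjusted p = 0.0238). Over all settings the adjusted p of Pax9 ran from 0.0388 to 0.999 and that of Msx1 from 0.0238 to 0.999. Shox2, a factor of the anterior shelf, stood at 59.0, 120 and 219 CPM against 49.5, 146 and 238 CPM (log2 ratio -0.15 ± 0.14).

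Skeletal genes gave 2 calls of 7 in the osteogenic list, against 6.92% over all genes tested, with 1 by DESeq2 and 0 with no library term. In the chondrogenic list 0 of 15 passed by edgeR or DESeq2, with 2 higher and 2 lower at an unadjusted p under 0.05. Runx2, the master factor of bone, stood at 229, 1073 and 1126 CPM in members and at 361, 989 and 998 CPM in non-cycling barcodes, a log2 ratio of -0.10 ± 0.14. Smpd3, a sphingomyelinase of the skeleton, was higher (1.01 ± 0.22, adjusted p = 0.0219), with 37 of its 137 E15.5 UMIs in 1 member, and lost the call without E15.5 (0.58, adjusted p = 0.284) and by DESeq2 (adjusted p = 0.164), with a ratio of 1.23 without neural barcodes. Ibsp, bone sialoprotein of mature osteoblasts, was lower (-2.03 ± 0.20, adjusted p = 7.75e-05). It had 0, 28 and 60 UMIs in 0, 4 and 5 members, and 25 of the 28 were in 1 barcode, so its value rests on very few cells, and its ratio was -0.63 (adjusted p = 0.531) after thinning. Without neural barcodes Ibsp stood at -1.94. Of 16 early response and stress genes 0 passed by edgeR or DESeq2, and 3 were lower at an unadjusted p under 0.05. Of 4 fetal growth RNA-binding genes 0 passed by either tool or at an unadjusted p under 0.05. Hmga2 had a log2 ratio of 0.04 ± 0.11. Sost, a Wnt antagonist of bone, had 0 UMIs in members and in non-cycling barcodes of all 3 libraries, where 3 UMIs in the sums would be 3.42 to 5.62 CPM in members.

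The share of the mesenchymal gate that passed the cycle rule was next compared between stages. As deposited it was 20.6% for E13.5 (99 of 480, exact 95% interval 17.1 to 24.5), 14.4% for E14.5 (129 of 894, interval 12.2 to 16.9) and 13.46% for E15.5 (180 of 1337, interval 11.7 to 15.4). After thinning to 1500 UMIs it was 13.7% (29 of 212, 9.36 to 19.1), 10.8% (57 of 526, 8.31 to 13.8) and 11.5% (95 of 828, 9.38 to 13.8), and the 3 intervals overlap. Without neural barcodes it was 15.7%, 14.0% and 13.0% as deposited. Thinning also changed who met the mesenchymal rule: of the 376, 608 and 957 barcodes deep enough to be thinned, 171, 113 and 176 no longer met it and 7, 31 and 47 others newly did. With the mesenchymal gate kept as deposited, an alternative added after seeing the data, these 376, 608 and 957 barcodes passed in 24.7%, 18.1% and 16.9% before thinning and in 11.2% (8.17 to 14.8), 11.02% (8.64 to 13.8) and 11.4% (9.45 to 13.6) after it. A higher share at E13.5 was not detectable at this equal depth in either way of thinning, and no test between single libraries was possible.

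Other cells gave a level to read these shares against. Under the same thinning, a neuron gate took barcodes with at least 3 neuron markers and under 2 of the 6 mesenchyme genes detected. Neurons are a type that has left the cycle. Barcodes of this gate passed the cycle rule in 2.71% (28 of 1033, interval 1.81 to 3.89), 6.33% (5 of 79, interval 2.09 to 14.2) and 4.08% (4 of 98, interval 1.12 to 10.1). Barcodes with an Epcam UMI, which mark epithelium, passed in 11.7%, 14.8% and 11.4%. The mesenchymal interval lay above that of the neuron gate at E13.5 and overlapped it at both later stages, where few neurons were captured, and it overlapped that of the epithelium at every stage. The mesenchymal and neuron gates share no barcode, since a barcode with neuron markers and at least 2 mesenchyme genes counted as mesenchymal. Before thinning, 47 of the 99 E13.5 members had 3 or more neuron markers. The gap at E13.5 is therefore not one between neurons and mesenchyme free of neuron RNA.

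**Figure D5:**
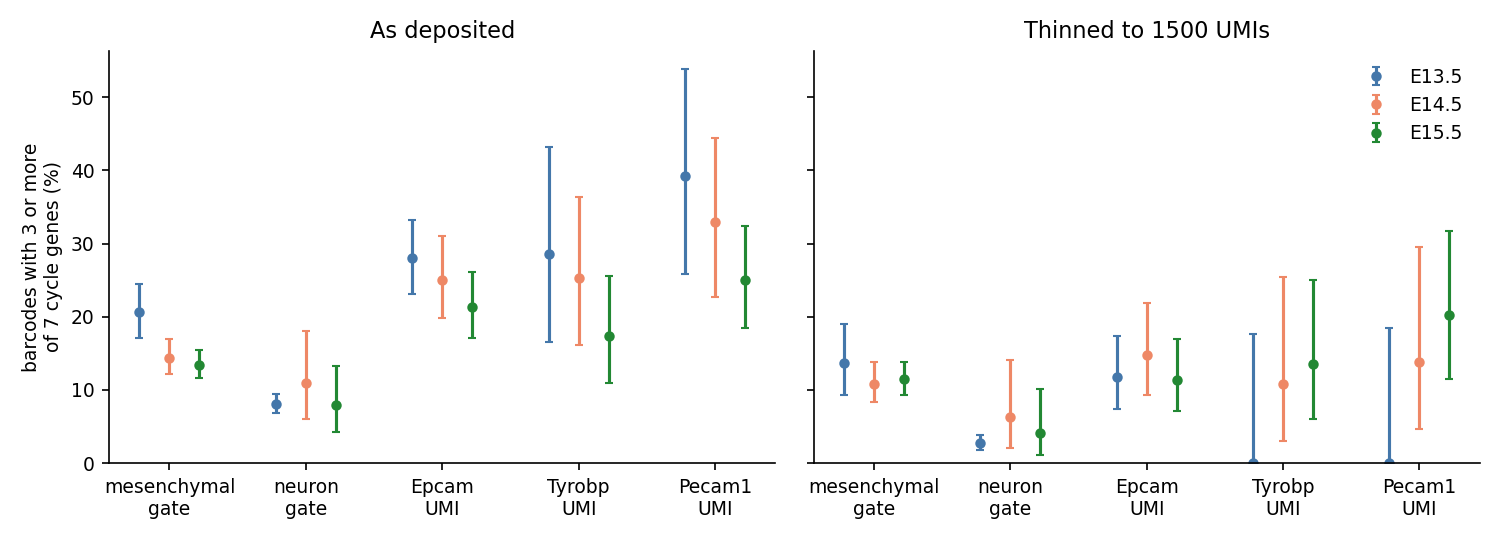
Percent of barcodes with at least 3 of the 7 cycle genes (vertical axis) in the mesenchymal gate and in 4 reference groups, as deposited on the left and thinned to 1500 UMIs on the right; bars are exact 95% binomial intervals of single libraries. The mesenchymal gate lies at 20.6%, 14.4% and 13.46% on the left and at 13.7%, 10.8% and 11.5% on the right, where its 3 intervals overlap.

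Parts of the mesenchyme were compared by a UMI of a marker, each within its library and after thinning. Barcodes with Pax9 passed the cycle rule in 21.1%, 5.62% and 7.64%, against 13.0%, 11.9% and 12.3% of those without. With Shox2 the shares were 20.0% (3 of 15 barcodes), 12.1% and 14.7%, against 13.2%, 10.6% and 10.4% without. With Runx2 they were 17.0%, 8.97% and 13.3%, against 12.6%, 12.3% and 10.0% without. With Dcn or Lum, proteoglycans of fibroblasts, they were 15.6%, 11.3% and 10.6%, against 13.3%, 10.6% and 12.2%. The intervals of the groups with and without a marker overlapped in all 30 pairs of marker and library (0 apart), with neural barcodes and without them. The direction turned with depth in some pairs. Thinned to 2500 UMIs, Shox2 at E13.5 gave 5.88% (1 of 17) against 19.2%, Runx2 at E14.5 gave 16.5% against 15.48%, and Dcn or Lum at E15.5 gave 16.01% against 13.9%. Without thinning 9 pairs were apart, and barcodes with Pax9 then passed in 36.4%, 15.7% and 16.7% against 18.1%, 14.1% and 12.3%, a direction opposite to the thinned one at E14.5 and E15.5.

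Within the members, expression was compared between stages, with no replicate and so no test. From E14.5 to E15.5, of 2509 genes that reached 100 CPM in one stage or the other, 46 were at least 2-fold higher (1.83%) and 30 lower (1.2%). These counts were 217 and 213 after thinning, which leaves fewer UMIs, and 118 and 77 without barcodes of 2 or more neural markers. From E13.5 to E15.5, 343 of 2651 were higher (12.9%) and 213 lower (8.03%). Without neural barcodes these were 320 of 2680 (11.9%) and 217 (8.1%). Between E13.5 and E14.5, 254 of 2602 were higher in the later stage (9.76%) and 182 lower (6.99%), and without neural barcodes 224 of 2624 (8.54%) and 142 (5.41%). Without neural barcodes E15.5 differed from E14.5 by 52 higher (2.07%) and 30 lower genes (1.2%) of 2510. Fewer cells of a type and less RNA per cell cannot be told apart in such sums.

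The cycle lists had flat medians between the later stages, with log2 ratios from E14.5 to E15.5 of 0.10 for replication, 0.07 for mitotic cyclins and kinases and -0.01 for kinetochore and spindle. From E13.5 to E15.5 these medians were 0.41, 0.43 and 0.49, and without neural barcodes -0.04, -0.15 and -0.08. The median over all genes was 0.04. Chromosome condensation went likewise from 0.39 to 0.02 and mitotic exit from 0.40 to -0.14. The histone list had no higher median to begin with, at -0.07, and stood at -0.67 without neural barcodes, with 1 of 13 genes above 0. The higher medians of the other 5 lists from E13.5 were thus near 0 or below it without the neural barcodes. At E13.5 the neural members were also deeper, with a median of 9683.5 against 3775 UMIs. They held less RNA of the rule cycle genes, at 1493 against 3521 CPM. Leaving them out changes all of these together, and what moved the medians cannot be told apart.

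Matrix genes had more RNA in both later libraries than at E13.5. From E13.5 to E14.5 their median log2 ratio was 1.87 in members and 1.54 in non-cycling barcodes. From E14.5 to E15.5 it was 0.11 in members, with 14 of 20 above 0, and 0.25 in non-cycling barcodes. All 20 had more RNA in the last library than in the first, with a median log2 ratio of 2.05, and 17 of 20 with a median of 1.41 without neural barcodes. The non-cycling barcodes gave 1.71 and 1.35, so non-cycling barcodes had a like difference. The osteogenic list had medians of 1.19 in 7 genes with and 1.57 in 8 genes without neural barcodes. Col1a1 had a ratio of 3.66 with and 3.67 without neural barcodes, and Aspn 3.33 and 2.69. In members, the median of palate regulators changed when the neural barcodes were left out, from 1.18 in 20 genes to 0.01 in 21 genes, where the non-cycling barcodes gave 0.96 and 0.70. Pax9 had a ratio of 1.19 with and -0.07 without them, while Shox2 kept 1.87 and 1.56.

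Chondrogenic genes had less RNA at E15.5 than E14.5 in all 15 measured, with a median log2 ratio of -1.47, against -0.82 in non-cycling barcodes and 0.01 over all genes. Col9a1, a cartilage collagen, had 58, 36 and 7 UMIs in 24, 8 and 6 members of the 3 stages, and Matn1, a cartilage matrix protein, had 14, 29 and 0 UMIs in 5, 6 and 0 members. These values rest on few barcodes, and 12 of the 36 E14.5 UMIs of Col9a1 were in 1 of them. Early response and stress genes had more RNA at E15.5 than E14.5 in 12 of 14, with a median of 0.75 in members and 0.97 in non-cycling barcodes. From E13.5 to E14.5 the members' median was -0.33, with 5 of 14 above 0, and from E13.5 to E15.5 it was 0.26, or -0.31 without neural barcodes. The non-cycling barcodes gave 0.90 and 0.73 for that last step, so without neural barcodes the members' median had the opposite sign.

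The largest falls from E13.5 to E15.5 were those of Hbb-y, Hba-x, Igfbpl1, Ina, Gm26871 and Tubb3. Hbb-y and Hba-x are embryonic globins, and Ina and Tubb3 are neuronal. Tubb3 had 156, 6 and 3 UMIs at the 3 stages, in 43, 3 and 2 members. Among the largest rises were Dnah2, with 54 of 93 E15.5 UMIs in 1 member, Klhl1, with 42 of 91 in 1 member, and Dnajc6, with 272 E15.5 UMIs in 26 members. Chodl, a membrane lectin, was spread more widely, with 4, 33 and 93 UMIs in 2, 26 and 36 members, or 5.62, 61.8 and 106 CPM. Its level in non-cycling barcodes was 10.7, 73.6 and 92.4 CPM, so both classes had more of it at each later stage.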

How the data were processed

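Raw UMI counts per gene and barcode were deposited by the authors for 3 single-cell libraries of palatal shelves, 1 per stage, with methanol-fixed cells per the labels' protocols. Cell Ranger 6.1.2 made the counts, per the file headers, on mm10 per the submitters' processing notes. The annotation used for counting is not given in the sources used here. Files held called cells only, with at least 500 UMIs.

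Members, the comparison group and all gene lists were chosen with earlier results of these data known. Barcodes with under 500 genes were left out. No doublets were removed: scrublet, run in scanpy 1.11.5, called 0, 4 and 1 barcodes, too few to have worked, and leaving out the 109, 25 and 56 highest scores was an alternative. UMIs were summed per library and class, and 6 sums were fitted with edgeR 4.0.16 (R 4.3.3; TMM, library as a term, quasi-likelihood test, Benjamini-Hochberg over all genes tested). Genes needed a mean of 20 CPM and 30 UMIs in all, and the 16 genes of the rule were not tested. Each class is summed from the same library, so the library pairs the 2 sums, and p-values measure spread between 3 libraries of different stages. On simulated data for this comparison, with 7209 genes, 80.9% of genes changed by 1 and 100% of those changed by 2 on the log2 scale were recovered, with 7 false among 169 calls. Levels are CPM of sums, stage ratios are log2 of CPM with 1 CPM added, and both carry exact Poisson 95% intervals in the tables. Shares carry exact Clopper-Pearson 95% intervals. A floor is 3 counts. Thinning drew 1500 UMIs per barcode and left out shallower ones.

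Named genes are the rule genes, the 3 highest and 3 lowest ratios of each list, the 10 highest and 10 lowest called genes outside the lists, the 6 largest stage rises and falls from 100 CPM, and Pax9, Sost, Ccnd1, Ccnd2, Cdkn1c, Shox2 and Msx1 by set interest. Cdk1, Cenpf, Pcna, Mcm5, Postn, Fbn2, Sfrp2, Igf1, Cxcl12 and Pdcd4 are outside that rule and were added after their values were seen. Alternatives changed the tool, the scaling, the filters, the rule, the depth and the barcodes left out. Gene positions are those of GRCm38.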

Additional observations from a re-analysis of the deposited data

Results flagged for a closer look

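In these genes the ratio of members to non-cycling barcodes had opposite signs in different stages. Each stage is 1 library, and the difference between stages was not tested. Values are log2 ratios of CPM, with 1 CPM added, in the order of the stages. Vim, vimentin, an intermediate filament of mesenchyme, had 0.60, -0.057 and -0.38. Runx2 had -0.65, 0.12 and 0.17. Col11a2, a cartilage collagen, had 0.82, 0.93 and -1.63, from 19, 44 and 7 UMIs in members. Dnajb1, a heat shock cochaperone, had 0.92, 0.45 and -0.87. Hbb-y had 1.15, -1.91 and -2.21, and Hba-x had 1.31, -1.79 and -3.92. In both globins the E13.5 ratio includes 1 member with 4146 of 7963 Hbb-y UMIs and 1 member with 1158 of 2465 Hba-x UMIs. Ina, a neuronal intermediate filament, had 0.83, -3.32 and 0.59, from 82, 0 and 1 UMIs in members.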

How the results depend on the processing

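Counts of genes higher and lower in members (382 and 141) were 211 and 21 by DESeq2, 171 and 3 with no replicate block, 623 and 434 with no filter on low counts, 213 and 131 at a mean of 50 CPM, and 225 and 95 after thinning. Leaving out 1 library gave 223 to 451 higher and 48 to 153 lower. Asking for 3 mesenchyme genes gave 73 lower, and leaving out barcodes with 2 or more neural markers 68. The share of cycling barcodes in the 3 stages in order was 29.8%, 19.8% and 19.2% with 2 cycle genes asked for, and 14.0%, 9.40% and 10.2% with 4. It was 25%, 18.5% and 17.8% at 1000 genes per barcode, 13.7%, 10.8% and 11.5% after thinning, 11.2%, 11.02% and 11.4% with the gate set before thinning (chosen after seeing the data), and 15.2%, 12.1% and 11.4% without barcodes of 2 or more neural markers. It was 25.7% at E13.5 and 16.6% at E15.5 with 3 mesenchyme genes, and 15.7% or 15.48% at E13.5 without 4 or more neural markers or without markers of any other class, both chosen after seeing the data. Genes at least 2-fold lower at E15.5 than E13.5 (213) were 569 after thinning and 379 without 2 or more neural markers. Against E14.5, genes higher (46) were 24 with 2 cycle genes, 217 after thinning and 118 without 2 or more neural markers, and genes lower (30) were 50 with 4 cycle genes, 213 after thinning and 77 without 2 or more neural markers. Thinned sums hold fewer UMIs. Markers with intervals apart (0) were 1 after thinning to 2500 UMIs and 9 with no thinning. Ccnd1 had a log2 ratio of -0.13 after thinning. Hbb-y, at 0.01, had -2.02 to 0.81 with 1 library left out, -1.73 after thinning, -1.41 among barcodes of 2000 to 8000 UMIs, -3.65 without 2 or more neural markers and -3.11 without markers of other classes. Sign changes of genes that missed the threshold both ways were not counted. The cause of these shifts was not tested. Size factors of DESeq2 in edgeR kept all 523 calls. Of the 141 lower genes 82, 81 and 30 were called again without E13.5, E14.5 and E15.5, and 113 without barcodes of 4 or more neural markers. Ogn and Aspn were called in 17 of 18 settings, all but the fit with no replicate block, and Col1a1 in 16. The sums allow 1 UMI to stand for 0.424 to 1.87 CPM, which limits genes under about 20 CPM, and a single library per stage leaves every stage difference without a replicate.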
